A study of Arabidopsis thaliana with 6 samples.

Results

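PR1, PR2 and PR5 are the pathogenesis-related genes most often read as markers of salicylate signalling in Arabidopsis leaves, and each is represented here by 1 probe set of the Affymetrix ATH1 array. The 3 probe sets, 266385_at for PR1 (AT2G14610), 251625_at for PR2 (AT3G57260) and 259925_at for PR5 (AT1G75040), were chosen by their identifiers from 22810 in all, with their values in these arrays already known. The platform annotation used for naming lists none of the 3, so the pairing of identifier and locus rests on the selection rule. The RefSeq gene table of assembly TAIR10.1 gives the symbols PR1 and PR5, and BGL2 with the synonym PR2, and places PR1 on chromosome 2, PR2 on chromosome 3 and PR5 on chromosome 1.

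Rosette leaves 3 to 6 of Arabidopsis thaliana plants that were 3 weeks old were compared between line A6, with 3 samples, and wild type, with 3 samples, each sample on its own array. All plants had 20 h of light and 4 h of dark a day at 20 °C, and the labels name the replicates biological without saying how many plants each one holds. The series concerns a plant deficient in N6-adenosine methylation. A6 is known as an mta mutant kept alive by a copy of MTA, which encodes the enzyme that methylates mRNA, under the embryo-active ABI3 promoter. It is a single line, so effects of low methylation and other properties of the line cannot be told apart, and the level of MTA is not analysed here.

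Salicylate accumulates in leaves attacked by biotrophic pathogens and acts through NPR1, a coactivator that works with TGA transcription factors at the promoters of defence genes. PR1, PR2 and PR5 are among the best known outputs of that pathway, and their proteins are secreted. PR1 is a small protein of the CAP family that binds sterols, PR2 is a beta-glucanase that cleaves callose-type glucans, and PR5 is a thaumatin-like protein. Their transcripts are also known to increase with leaf age and in lesion-forming or autoimmune plants.

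All values are deposited RMA values, taken as log2, and each probe set had been shifted to a median of 0 across the 6 arrays. These values give differences between arrays and no level, so the 3 genes cannot be ordered by abundance, and neither presence in wild type nor the leaf identity of the tissue can be checked from them. Where all A6 values lie above all wild-type values, the centring places the lowest A6 value and the highest wild-type value at equal distances from 0. Below, the 3 values of a line are those of replicates 1, 2 and 3 in turn. In whole leaves, fewer cells expressing a gene and less RNA per cell cannot be told apart.

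PR1, PR2 and PR5 were all far higher in A6 leaves than in wild-type leaves. The mean differences corresponded to 19.9-fold for PR1, 24.0-fold for PR2 and 39.3-fold for PR5, if the log base is 2. The lowest A6 array lay above the highest wild-type array for each of the 3 genes, a separation in this direction that 13.1% of all 22746 non-control probe sets showed. Because these genes were chosen with that contrast in view, the values are a description and were not tested.

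PR1 had centred log2 values of 2.20, 2.63 and 1.38 in A6. On the wild-type arrays it had -1.77, -1.38 and -3.58. The lines did not overlap, and wild-type replicate 3 stood below the other wild-type arrays. The A6 mean was 2.07 ± 0.63 and the wild-type mean -2.24 ± 1.17 (SD, n = 3 each), a difference of 4.31 log2 units (SE 0.77 from the spread within the lines). Over the 9 pairs of an A6 array with a wild-type array, the PR1 difference ran from 2.76 to 6.20 log2 units.

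PR2 had values of 2.55, 2.73 and 1.54 in A6, against -2.24, -1.54 and -3.16 in wild type. Again A6 replicate 3 was the lowest A6 array and wild-type replicate 3 the lowest of all, with no overlap between the lines. An A6 mean of 2.27 ± 0.64 and a wild-type mean of -2.31 ± 0.81 (SD, n = 3 each) gave a PR2 difference of 4.59 log2 units (SE 0.60). Single pairs of arrays differed by 3.09 to 5.89.

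PR5 had values of 3.15, 3.10 and 1.74 in A6, against -2.52, -1.74 and -3.62 in wild type. The lines were separated by a gap of 3.49 log2 units, the widest of the 3 genes. The A6 mean of PR5 was 2.67 ± 0.80 and its wild-type mean -2.63 ± 0.94 (SD, n = 3 each), a difference of 5.30 log2 units (SE 0.71), and pairs of arrays differed by 3.49 to 6.77.

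**Figure D1:**
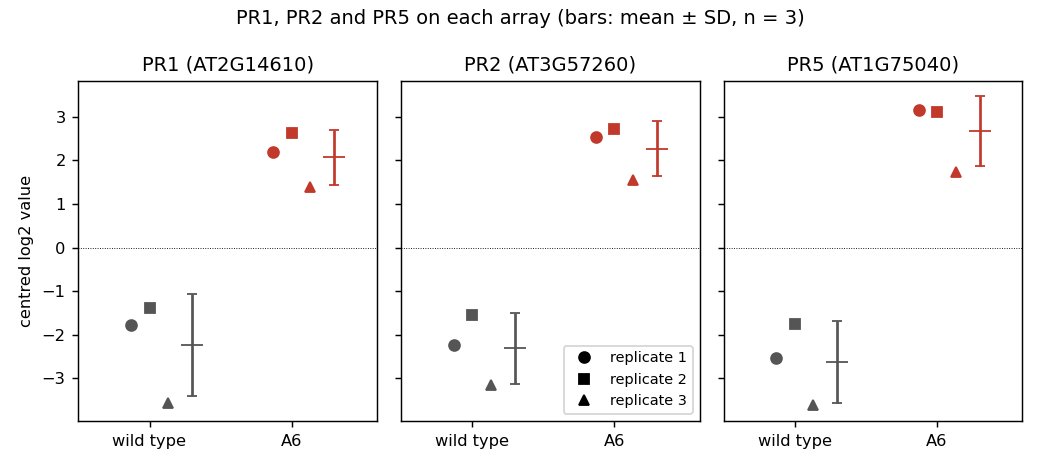
Centred log2 value (vertical axis) of PR1, PR2 and PR5 on each of 3 wild-type and 3 A6 arrays, with symbols for replicates and bars for mean ± SD. The A6 arrays lie between 1.38 and 3.15 and the wild-type arrays between -3.62 and -1.38, and replicate 3 is the lowest array of its line in each panel.

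Among 22746 probe sets ordered by the difference between A6 and wild type, PR5 stood in place 1, PR2 in place 3 and PR1 in place 5. An unnamed probe set (5.15) and CHI (AT2G43570), annotated as a chitinase, with 4.43, lay between them. The median difference over all probe sets was -0.02 log2 units.

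**Figure D2:**
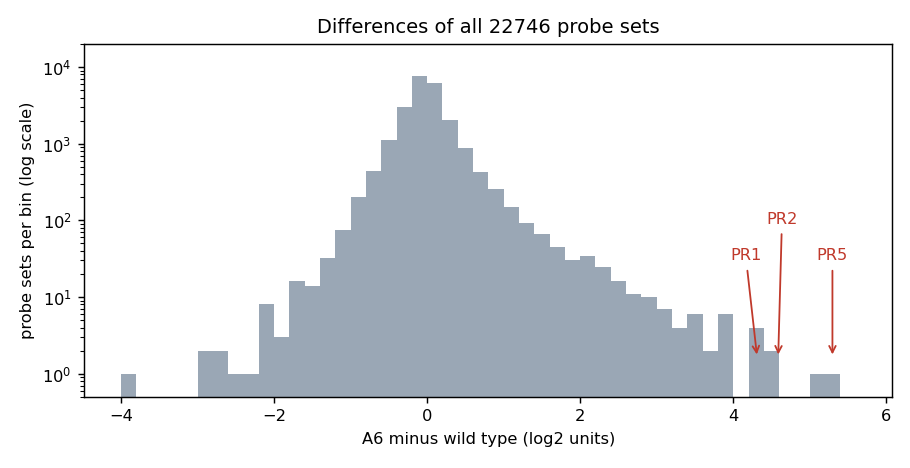
Number of probe sets (vertical log axis) by A6 minus wild type difference in log2 units, in bins over all 22746 non-control probe sets, with arrows at PR1 (4.31), PR2 (4.59) and PR5 (5.30). The 3 genes lie at the upper end of the distribution, whose lowest value is -3.87.

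The 3 genes also shared the order of the wild-type arrays and the lowest A6 array. The highest A6 array was replicate 2 for PR1 and PR2, and replicate 1 for PR5. Relative to the A6 mean, A6 replicate 3 was lower by 0.69 log2 units for PR1, by 0.73 for PR2 and by 0.92 for PR5, while A6 replicates 1 and 2 were above the mean for each gene. Wild-type replicate 3 had deviations of -1.33, -0.85 and -0.99 from the wild-type mean for PR1, PR2 and PR5, and wild-type replicate 2 had deviations of 0.86, 0.77 and 0.89. Wild-type replicate 1 lay between these arrays for all 3 genes. The same placing of the wild-type arrays was found in 9.82% of all probe sets, and A6 replicate 3 was the lowest A6 array in 32.3%. Among the 455 probe sets (2.0% of all) that were at least 2-fold higher in A6 and had an adjusted p under 0.05 in limma's test, those shares were 19.3% and 75.4%.

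The spread between replicates was wide for all 3 genes. The wild-type SD of PR1 was 1.17, with a 4.58-fold range over the 3 wild-type arrays, and the SDs of PR2 and PR5 were 0.81 and 0.94, with ranges of 3.07-fold and 3.67-fold. The median wild-type SD of all probe sets was 0.15 log2 units, and 99.8%, 99.4% and 99.6% of probe sets had a smaller one than PR1, PR2 and PR5. In A6 the ranges were narrower at 2.37-fold, 2.27-fold and 2.66-fold, against a median A6 SD of 0.12 over all probe sets.

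The swings of the 3 genes were compared with each other array by array. PR2 minus PR1 was 0.34, 0.099 and 0.16 in A6, against -0.47, -0.16 and 0.41 in wild type. Since each gene is centred on its own median, these values compare the size of its swings and not its abundance. The difference between A6 and wild type was 0.27 log2 units larger for PR2 than for PR1 (SE 0.27). For PR5 it was 0.98 larger than for PR1 (SE 0.27) and 0.71 larger than for PR2 (SE 0.14). PR5 minus PR1 and PR5 minus PR2 were each above 0 on each A6 array and below 0 on each wild-type array. In A6 replicate 3 and wild-type replicate 2 these signs follow from the centring and the wider gap of PR5. These contrasts use the values that chose the genes and were not tested. Each gene is read by 1 probe set, and the SEs cover only the spread between replicates. Whether the 3 probe sets report differences on the same scale was not tested, so the order of the 3 differences is that of the probe sets.

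Likeness to each gene was measured as the root mean square difference of the 6 centred values. It is dominated by the gap between A6 and wild type for which the genes were chosen, so near places among probe sets of like difference follow largely from that choice. Among the other 22745 probe sets, PR2 was in place 2 for PR1 (0.31 log2 units) and PR1 in place 3 for PR2. PR5 was in place 7 for PR1 (0.57) and in place 5 for PR2 (0.38). The 3 named genes most like each member were the same for all of them: CHI, AT5G55450 and AT5G52760. CHI was nearest to PR2 (0.28) and to PR5 (0.53), and AT5G55450 was nearest to PR1 (0.35).

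CHI had values of 2.59, 3.06 and 1.49 in A6, against -2.08, -1.49 and -2.59 in wild type. A6 replicate 3 and wild-type replicate 3 were again the lowest arrays of their lines. AT5G55450 had 2.67, 2.20 and 1.52 in A6 and -1.52, -1.70 and -3.19 in wild type, and differed from the PR genes in that wild-type replicate 1 was its highest wild-type array. AT5G52760 had a smaller swing, from -2.59 in wild-type replicate 3 to 1.77 in A6 replicate 1. As these genes were picked for their likeness over the same arrays, their differences are given without a test.

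**Figure D3:**
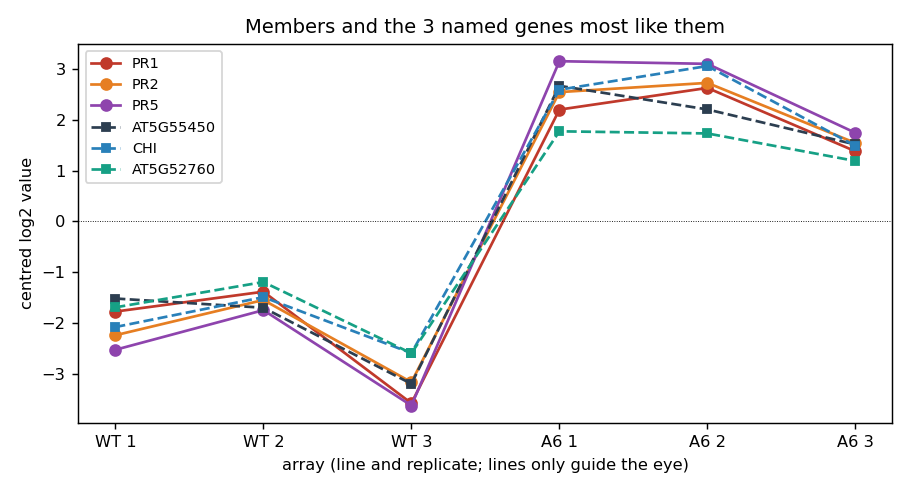
Centred log2 value (vertical axis) on each of 6 arrays (horizontal axis) for PR1, PR2 and PR5 (solid) and for CHI, AT5G55450 and AT5G52760 (dashed), with lines that only guide the eye. All 6 genes are low in wild-type replicate 3 and have their lowest A6 value in replicate 3.

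Array controls were set beside these patterns. The mean 3′ minus 5′ difference of the centred values of the actin, GAPDH and ubiquitin control probe sets was taken as a relative sign of RNA quality. It was -0.022, -0.021 and -0.033 in A6, against 0.091, 0.016 and 0.041 in wild type, so it also separated the lines. Because of the centring it compares arrays and gives no 3′ to 5′ ratio, so values near 0 do not show intact RNA. With that difference as a covariate, the A6 minus wild type differences were 4.56 for PR1 (limma SE 1.11), 4.41 for PR2 (0.87) and 5.14 for PR5 (1.03). The hybridisation spike-ins (bioB, bioC and bioD) were high in A6 replicate 3 (0.49) and wild-type replicate 1 (0.46) and low in wild-type replicate 3 (-0.38). Without A6 replicate 3 the differences were 4.66, 4.95 and 5.76, and without wild-type replicate 3 they were 3.65, 4.16 and 4.80, for PR1, PR2 and PR5.

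The relatives of PR1, PR2 and PR5 by sequence family showed no such shift. Of 57 listed relatives, 48 could be measured by name, and 3 rose and 1 fell in limma's test over all probe sets (adjusted p under 0.05). That is 6.25% and 2.08% of the 48, beside 5.03% and 4.74% of all probe sets, so the share that rose was near the background. Without wild-type replicate 1 the counts were 7 and 2, beside 7.03% and 8.29% of all probe sets. Without each other array 2 rose and 1 fell, beside 2.04% to 3.92% and 1.32% to 2.9% of all probe sets. The median difference of the relatives was 0.04 log2 units, and 47 of the 48 differed by less than 1 log2 unit.

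In the family of PR1, 1 of 18 measured relatives rose. PR-1-LIKE (AT2G19990) had values of 0.54, 0.52 and 0.30 in A6, against -0.30, -0.42 and -0.78 in wild type, without overlap. Its difference of 0.95 log2 units (SE 0.14, adjusted p = 0.00717) was far smaller than that of PR1. The remaining 17 did not pass, with AT5G66590 lowest at -0.76 (adjusted p = 0.0782).

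Among 15 measured glucanase relatives of PR2, AT3G13560 rose by 0.99 log2 units (SE 0.25, adjusted p = 0.0486). It lost that call without each array except wild-type replicate 1 (highest adjusted p = 0.156). AT4G16260 varied widely, between -1.65 and 1.10 over the 6 arrays, and its lines overlapped (difference -0.19, adjusted p = 0.924).

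Among 15 measured thaumatin-like relatives of PR5, AT1G70250 rose by 0.83 log2 units (SE 0.13, adjusted p = 0.00913) and AT1G20030 fell by 0.997 (SE 0.10, adjusted p = 0.00169). AT1G20030 had -0.61, -0.62 and -0.41 in A6 and 0.51, 0.41 and 0.43 in wild type. OSM34, an osmotin-like gene, had 1.01, 4.65 and -0.21 in A6, against -0.063, -0.53 and 0.063 in wild type. A6 replicate 2 alone stood far above the other arrays, and OSM34 did not pass (difference 1.99, adjusted p = 0.299). When the 3′ minus 5′ control difference was added as a covariate, the differences were 1.202 for PR-1-LIKE, 1.88 for AT3G13560, 0.43 for AT1G70250 and -0.94 for AT1G20030, so that of the 4 only AT1G70250 became clearly smaller. None of the 4 passed in that fit (adjusted p = 0.0783, 0.0526, 0.33 and 0.0729).

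**Figure D4:**
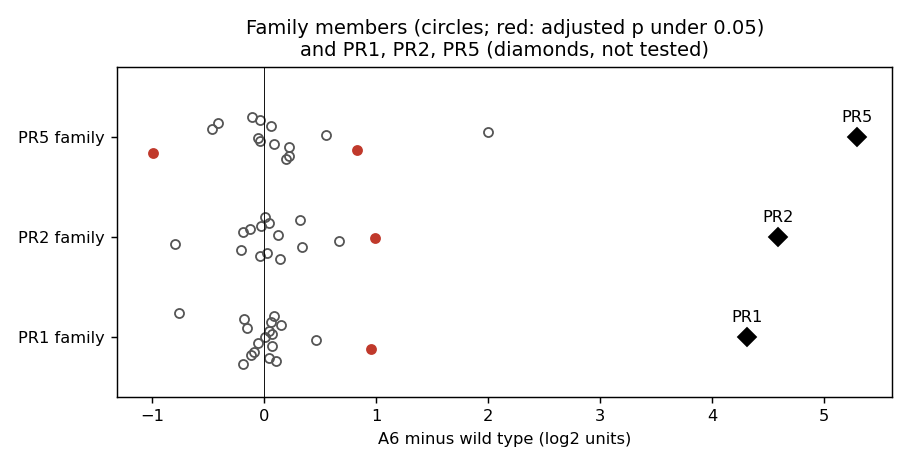
A6 minus wild type difference in log2 units (horizontal axis) of 48 relatives in the families of PR1, PR2 and PR5, as circles that are red where limma's adjusted p was under 0.05, and of the 3 genes themselves as diamonds, which were not tested. The relatives lie between -0.997 and 1.99, and the 3 genes between 4.31 and 5.30.

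The measured neighbours on the chromosome were also near 0, but they were few. All 4 measured around PR1 are annotated as pseudogenes, so no protein-coding neighbour of PR1 is covered, and only 2 neighbours were measured around PR5. Of the 5 RefSeq genes on each side of each member, 11 of 30 were measured under a name, and their differences ran from -0.09 to 0.13 around PR1, from -0.44 to 0.18 around PR2 and from -0.30 to 0.09 around PR5. With limma 0 of the 11 rose and 1 fell (9.09%), beside 5.03% and 4.74% of all probe sets. AT3G57280, 2 genes from PR2, fell by 0.44 log2 units (SE 0.11, adjusted p = 0.0448), a call lost without each array except wild-type replicate 1 (highest adjusted p = 0.136). With the control covariate its difference was -0.46 (adjusted p = 0.313). AT1G75050, the thaumatin-like gene next to PR5, had a difference of 0.09 (adjusted p = 0.719). PRB1, BG3, BG1 and TLP-3, the closest relatives of the 3 genes nearby, are not analysed here by name.

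Most measured genes of salicylate metabolism, signalling and response also rose. A name was available for 9 of the 57 listed genes. With limma 7 of the 9 rose, 0 fell and 2 did not pass, beside 5.03% of all probe sets that rose, and the median difference was 0.88 log2 units. The list was written with earlier results of these arrays known, so this count is no independent evidence. In the fit that includes the 3′ minus 5′ control covariate, all 7 differences were above 0. The differences were 2.56 for WRKY53 and 1.98 for AT5G52810, which passed (adjusted p of 0.036 and 0.0446), and 1.603 for GRX480, 1.29 for UGT76B1, 1.03 for AT4G26120, 0.69 for WES1 and 0.47 for SAG101, which did not. Without A6 replicate 1, 4 of the 7 calls remained.

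Among regulators, WRKY53, a transcription factor known from leaf ageing and immunity, had values of 1.55, 1.87 and 1.11 in A6, against -1.52, -1.11 and -1.32 in wild type. In contrast to the PR genes, its lowest wild-type array was replicate 1. GRX480, a glutaredoxin that binds TGA factors, had 0.41, 0.67 and 0.54 in A6 and -0.41, -0.67 and -1.06 in wild type, where replicate 3 was lowest (adjusted p = 0.00448). SAG101, which works with EDS1 in immunity, had 0.60, 0.57 and 0.14 in A6 and -0.46, -0.14 and -0.22 in wild type (adjusted p = 0.0274, with a highest adjusted p of 0.116 when 1 array was left out).

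AT5G52810 and AT4G26120, for which the RefSeq table gives no name, rose by 2.07 (SE 0.17, adjusted p = 0.000722) and 0.88 log2 units (SE 0.12, adjusted p = 0.00481). AT5G52810 had 1.39, 1.23 and 0.78 in A6, against -1.02, -0.78 and -1.01 in wild type. A6 replicate 3 was the lowest A6 array of AT5G52810, as for PR1, PR2 and PR5 and for 75.4% of the 455 probe sets described above. Unlike in the PR genes, wild-type replicate 1 was its lowest wild-type array, just below replicate 3.

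Of 4 measured genes that modify salicylate, 2 rose. UGT76B1, a glycosyltransferase of salicylate and isoleucic acid, had 1.21, 1.07 and 0.16 in A6, against -0.16, -0.22 and -0.26 in wild type. It rose by 1.03 log2 units (SE 0.25, adjusted p = 0.0399), with A6 replicate 3 close to wild type, and lost the call whenever replicate 1 or 2 of A6, or replicate 2 or 3 of wild type, was left out (highest adjusted p = 0.135). WES1, an enzyme that joins amino acids to auxin and salicylate, had 0.46, 0.44 and 0.21 in A6 and -0.65, -0.53 and -0.21 in wild type (adjusted p = 0.0106, and 0.0599 without A6 replicate 1). The glucosyltransferase UGT74F1 had a difference of 0.08 (95% interval -0.17 to 0.33, adjusted p = 0.733). BSMT1, which makes methyl salicylate, had -0.87 (95% interval -1.69 to -0.05, adjusted p = 0.177). Its values were -0.47, 0.17 and -0.37 in A6, against 0.76, 1.35 and -0.17 in wild type, and single arrays decided its call: it was lower in A6 without wild-type replicate 3 (-1.28, adjusted p = 0.033) and with array weights (-1.13, adjusted p = 0.0423), and had -0.52 without wild-type replicate 2. None of 8 listed genes of salicylate synthesis was measured under a name.

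**Figure D5:**
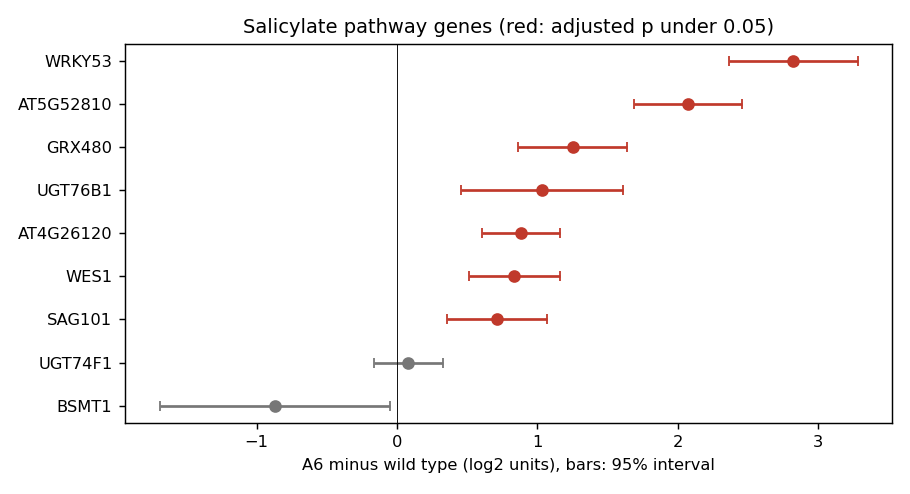
A6 minus wild type difference in log2 units with its 95% interval (horizontal axis) for the 9 measured genes of the salicylate lists, red where limma's adjusted p over all probe sets was under 0.05. The 7 red genes range from 0.71 (SAG101) to 2.82 (WRKY53), all below the 4.31 of PR1.

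Other processes that bear on secreted defence proteins were covered by few named genes. ATERDJ3B, a co-chaperone of protein folding in the endoplasmic reticulum and the 1 measured gene of 9 listed for secretion, had 0.94, 0.98 and 0.36 in A6, against -0.36, -0.48 and -0.63 in wild type. It rose by 1.25 log2 units (SE 0.17, adjusted p = 0.0052), and had a difference of 1.52 (adjusted p = 0.0731) in the fit with the 3′ minus 5′ covariate. The 3 measured genes of the jasmonate and ethylene list, which includes defence markers often set against the salicylate ones, had differences between -2.02 (PDF1.2b, adjusted p = 0.12) and -0.28 (THI2.1, adjusted p = 0.184). With limma 0 of these 3 passed and 2 had an unadjusted p under 0.05. PDF1.2b did pass without wild-type replicate 1 (-2.75, adjusted p = 0.0124) and with array weights (-2.46, adjusted p = 0.00821), and PDF1.2 moved from -1.27 to -0.35 without wild-type replicate 3. Of the senescence list, SAG29 had -0.26 and WRKY6 0.25 (adjusted p = 0.247 and 0.265), and 0 of these 2 had an unadjusted p under 0.05. SAG29 passed with array weights (-0.39, adjusted p = 0.0341).

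Of 31 listed markers of leaf photosynthesis, root, stomata, vascular tissue, flower and seed 9 were measured under a name, with differences between -0.23 (SWEET11, vascular) and 0.35 (SBPASE, photosynthesis). With limma 0 of the 9 passed and 1, PSAN (0.32, adjusted p = 0.0739), had an unadjusted p under 0.05. Without wild-type replicate 1 SBPASE passed (0.54, adjusted p = 0.0238), and with array weights both did (adjusted p = 0.0323 for PSAN and 0.0334 for SBPASE). The root genes PYK10 and EXPA7 had -0.12 and -0.13, and MUTE and FMA of the stomatal list had -0.15 and 0.15. So few markers leave the makeup of the tissue largely unmeasured.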

How the data were processed

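Leaf RNA was labelled with an Affymetrix kit that starts from the 3′ end of transcripts and hybridised to 6 ATH1 arrays. Per the submitters' processing notes, the values deposited by the authors come from RMA. Its version and the log base are not given in the sources used here. The deposited values were taken as log2, since RMA gives log2. RMA corrects background, normalizes quantiles and summarizes probes. The deposited values are also centred per probe set (median 0 within 5.0e-07), so brightness, detection and background could not be used. The number of arrays limits the precision.

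Differences were tested in R 4.3.3 with limma 3.58.1 (lmFit, then eBayes), two-sided, with the line as the only term, over 22746 probe sets after 64 array controls were left out. Benjamini-Hochberg adjustment ran over all of them, with a threshold of 0.05. PR1, PR2 and PR5 are described without a test. A simulation of this comparison with 22746 probe sets served as a check. Of 100 with a true difference of 1 log2 unit limma called 71, and of 100 with a difference of 2 it called 98. Of the 22546 with none it called 4. The simulated noise was drawn independently for each probe set and array, so the check does not give the error rates in the real arrays.

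Names came from the platform annotation updated through RefSeq: 13513 probe sets paired with 1 gene and 503 with several, and the rest are unnamed here. A gene with several probe sets was represented by the plainest suffix and then the lowest number. The members and the gene lists were chosen with earlier results of these data known. Genes were to be named if measured in the salicylate, family or neighbour lists, as up to 3 called genes (or 2 as values) of other lists, or as the 3 named genes most like each member. The text departs from this for relatives and neighbours, which it gives by counts and ranges, with names for the called ones and for a few singled out after their values were seen. No promoter or protein sequence of the 3 genes was used here. The labels call the replicates biological, and nothing says whether each came from separate plants grown apart. The p-values thus set each difference against the spread between these samples only, as moderated by limma over all probe sets.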

Additional observations from a re-analysis of the deposited data

How the results depend on the processing

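The differences of PR1, PR2 and PR5 kept their direction and moved by less than the SD between replicates under each of 11 alternatives per gene: leaving out any 1 array (3.65 to 4.74 for PR1, 4.16 to 4.97 for PR2 and 4.80 to 5.76 for PR5), centring each array on its median, repeated quantile normalization (3.66, 4.18 and 5.26), group medians (3.97, 4.78 and 5.63), the 3′ minus 5′ covariate and the replicate block. For some of these alternatives all or part of this outcome was fixed in advance. The replicate block cannot move a difference in this balanced design. Leaving out 1 of 3 arrays cannot move it by that SD, nor reverse it where the lines do not overlap. Group medians cannot reverse it there either. Centring each array on its median shifts all probe sets alike, so the differences of PR1, PR2 and PR5 moved together, to 4.33, 4.60 and 5.31. The 2222 probe sets called with limma became 290 with the 3′ minus 5′ covariate, 4691 with array weights and 766 to 3484 when 1 array was left out. The count of called salicylate genes, 7 with all arrays, was 2 with that covariate and 4 to 7 when 1 array was left out, and the 6 without wild-type replicate 3 were 5 that rose and 1, BSMT1, that fell. Array weights gave 7 rises and 1 fall there. Among the 48 relatives of PR1, PR2 and PR5 they gave 5 rises and 4 falls, beside 9.31% and 11.3% of all probe sets. For these relatives the replicate block gave 3 and 2, beside 3.86% and 2.85%, and the covariate gave 0 and 0, beside 0.642% and 0.633%. With fewer arrays or an added term the fit has fewer degrees of freedom. The 3′ minus 5′ covariate also separated the lines, so its effect and that of the line cannot be cleanly told apart. With it the limma SE went from 0.55 to 1.11 for PR1, from 0.43 to 0.87 for PR2 and from 0.51 to 1.03 for PR5. Further causes were not tested.

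The replicate number as a block gave 1526 called probe sets and 6 called salicylate genes, and left the differences of PR1, PR2 and PR5 at 4.31, 4.59 and 5.30. Their limma SEs fell with the block, from 0.55 to 0.21 for PR1, from 0.43 to 0.14 for PR2 and from 0.51 to 0.17 for PR5. Deviations from the line means of same-numbered arrays correlated at -0.13, 0.18 and -0.16 across probe sets. Of the A6 arrays, only replicate 2 correlated best with its own number. The highest correlation was 0.30, for A6 replicate 3 with wild-type replicate 1. With 3 arrays per line these correlations cannot show whether same-numbered arrays were handled together, and the labels do not say. A filter on dim probe sets and another background correction were not possible with centred values.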

Other observations

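Among the 8 largest A6 minus wild type differences, 3 belonged to probe sets that, unlike PR1, PR2 and PR5, have no gene name here, at 5.15, 4.31 and 4.21 log2 units. The first of these lay between PR5 and PR2.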
